A study of Mus musculus with 12 samples.

Results

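Transcripts of 34 genes of glucose breakdown, of the response to low oxygen and of blood vessel growth were followed in mouse peritoneal macrophages. The genes were chosen by name, from 34928 gene symbols in the count table, as glycolytic enzymes, glucose and lactate transporters, hypoxia-inducible factors (HIF) and their targets, and Vegfa. They were chosen without a threshold on any measured value, but with earlier results of these data known. Their counts beside the shares of all genes are therefore a description. The table held 33 of them under their listed symbols and Ero1l under its present symbol Ero1a. All 34 passed the filter on low counts and were tested.

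The macrophages were those of mice labelled as male and aged 8 weeks, taken 3 days after 3% Brewer thioglycolate was injected into the peritoneal cavity, an irritant that draws monocytes and macrophages there. The 4 groups held 3 libraries each. Libraries of Mac-Ern1KO mice, called KO here, were made from cells given platelets opsonised with R300, which binds their glycoprotein CD42 (KO R300), and from cells whose treatment is labelled Con (KO blank). Libraries of Ern1fl/fl mice, called WT here, formed the groups WT R300 and WT blank. These control mice carry the floxed Ern1 allele too, and Ern1 encodes the stress sensor IRE1α of the endoplasmic reticulum. A co-culture of 2 h is stated for the R300 cells. Nothing in the labels tells if uncoated platelets were added to blank cells, or which Cre driver removes Ern1. For a difference between R300 and blank, the antibody, the platelets and the culture time cannot be told apart.

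Glycolysis splits glucose into pyruvate in a chain of enzymes that begins with hexokinase and ends with pyruvate kinase. Glucose enters through transporters such as GLUT1, and lactate made from pyruvate leaves through the monocarboxylate transporters MCT1 and MCT4. HIF-1α and HIF-2α are transcription factors that prolyl hydroxylases mark for destruction when oxygen is present. When oxygen falls, they bind a short core sequence, the hypoxia response element, near many glycolytic genes and near Vegfa, whose product makes blood vessels grow and leak. Activated macrophages take up more glucose and can raise HIF-1α at normal oxygen.

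The promoters of the 5 genes that passed the test of R300 against blank over both genotypes are shown because they are the members on which the results below turn. Each is the stretch before a transcription start in RefSeq (GRCm38.p6), 5′ to 3′ on the gene's own strand. Capitals mark the core ACGTG or GCGTG of the hypoxia response element on either strand. The stretch of Vegfa is chr17:46032378-46032627 on the minus strand. The others lie on the plus strand, Slc2a1 (the gene of GLUT1) at chr4:119108495-119108740, Slc16a1 (MCT1) at chr3:104638414-104638663, Slc16a3 (MCT4) at chr11:120948817-120949066 and Hilpda (a lipid droplet protein) at chr6:29272238-29272487. The last 30 bases of the Slc2a1 stretch and 14 bases of the Slc16a3 stretch lie in an annotated exon.
Vegfa: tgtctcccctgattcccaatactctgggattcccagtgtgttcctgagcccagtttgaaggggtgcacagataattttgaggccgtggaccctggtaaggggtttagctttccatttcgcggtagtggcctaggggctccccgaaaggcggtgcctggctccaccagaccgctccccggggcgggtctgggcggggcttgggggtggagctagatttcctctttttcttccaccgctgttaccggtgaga
Slc2a1: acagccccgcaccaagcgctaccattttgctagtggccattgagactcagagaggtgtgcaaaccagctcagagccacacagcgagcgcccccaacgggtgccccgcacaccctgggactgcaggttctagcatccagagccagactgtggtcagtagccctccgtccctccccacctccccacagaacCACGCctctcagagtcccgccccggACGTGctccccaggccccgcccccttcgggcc
Slc16a1: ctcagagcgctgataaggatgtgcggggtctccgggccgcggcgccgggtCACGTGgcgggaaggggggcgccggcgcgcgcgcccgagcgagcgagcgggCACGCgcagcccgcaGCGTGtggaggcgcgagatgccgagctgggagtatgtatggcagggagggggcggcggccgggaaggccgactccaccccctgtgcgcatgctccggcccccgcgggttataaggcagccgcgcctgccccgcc
Slc16a3: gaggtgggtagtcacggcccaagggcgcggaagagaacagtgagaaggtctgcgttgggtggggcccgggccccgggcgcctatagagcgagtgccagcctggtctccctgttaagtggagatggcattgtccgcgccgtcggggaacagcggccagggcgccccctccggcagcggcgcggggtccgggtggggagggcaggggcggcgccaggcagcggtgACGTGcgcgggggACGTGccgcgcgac
Hilpda: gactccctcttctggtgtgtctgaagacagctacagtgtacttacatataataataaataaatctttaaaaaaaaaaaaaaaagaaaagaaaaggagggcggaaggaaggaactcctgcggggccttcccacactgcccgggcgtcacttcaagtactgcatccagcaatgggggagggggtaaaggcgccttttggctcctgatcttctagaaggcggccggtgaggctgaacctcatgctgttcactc

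The core had 2 matches in the stretch of Slc2a1, 2 in that of Slc16a3 and 4 in that of Slc16a1, where the palindrome CACGTG counts on both strands. The stretches of Vegfa and Hilpda printed here had 0, and windows before other annotated starts of these genes had 2 and 3. The other window of Vegfa, chr17:46025164-46025413, lies inside the span of the gene. That of Hilpda, chr6:29272376-29272625, runs past the annotated gene start at 29272488. RefSeq windows of 250 bases were held for 31 of the 34 genes. The core was present in 29 of them (93.5%), against 59.5% of the 10974 tested genes with a window and 41.5% of all 27025 genes with one. Vegfa and Hilpda are among these 29 only through their other windows. Gpi1 and Tpi1 had no match. Members' windows were richer in G and C, with a median of 62.8% against 59.2% for tested genes and 52.4% for all genes, and the part of base composition in the share of matches was not tested. The E-box CACGTG, which contains the core, was found in 6 of the 31 (19.4%), against 9.58% of tested genes and 6.86% of all genes. The cyclic AMP response element TGACGTCA was found in 1 (3.23%), against 2.88% and 1.77%, and its part TGACG in 8 (25.8%), against 29.4% and 19.8%. A match describes letters in the window and does not show binding.

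Library totals ran from 21765586 counts (WT blank 1) to 44273655 counts (KO blank 2). The mice are labelled male, yet 8 libraries held 143 to 590 CPM (counts scaled to the library total) of Xist, the transcript of the inactive X chromosome of female cells. The other 4, which were KO R300 3, KO blank 3, WT R300 2 and WT blank 3, held at most 0.0742 CPM. Among the libraries with Xist, those of KO held 464 to 590 CPM and those of WT 143 to 431 CPM. A pair of R300 libraries within each genotype was nearly alike. The median chi-square over genes was 1.53 between KO R300 1 and 2 and 1.37 between WT R300 1 and 3, whereas it was 6.15 to 10.3 for all other pairs of a group. The labels call the 3 libraries of a group biological replicates. The p-values measure the spread between these libraries, which may be fewer than 3 independent samples in each R300 group. The near-alike pairs are also the only R300 libraries with Xist. In a fit of the 8 libraries with Xist, the R300 spread is that within these pairs, so its p may be too small. The same limit applies in part to a fit with a term for the libraries without Xist. Ern1 transcripts were no lower in KO than in WT libraries, at 174 to 235 CPM in KO R300 and 116 to 155 CPM in KO blank, against 138 to 205 CPM in WT R300 and 94.1 to 117 CPM in WT blank. Since gene counts cannot tell whether an exon was removed, Ern1 does not check the deletion. The 12 macrophage markers listed were all in the table and summed to 12860 to 19730 CPM in R300 libraries and 11530 to 19670 CPM in blank libraries. Of the defining ones, Adgre1 and Csf1r were at 566 to 641 and 1591 to 1997 CPM with R300, against 579 to 706 and 1496 to 2270 CPM in blank libraries.

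Macrophages given R300-coated platelets had higher transcripts of Vegfa, of the glucose transporter Slc2a1, of the lactate transporters Slc16a3 and Slc16a1 and of Hilpda than blank ones, while no glycolytic enzyme passed the test. Over both genotypes, 6 R300 libraries against 6 blank ones, 5 of the 34 genes were higher and 0 were lower (edgeR quasi-likelihood test, adjusted p under 0.05). Among all 16546 genes tested, 2.43% were higher and 1.21% were lower by the same rule (3.64% in either direction). The median log2 difference was 0.09 over the 34 genes and -0.003 over all genes, and 22 of the 34 were positive against 49.3% of all genes. At an unadjusted p under 0.05 there were 11 of the 34, against 15.6% of all genes. Libraries of the treatments did not overlap for 6 members that were higher with R300, the 5 called genes and Pkm, and for 0 that were lower. Such separation was seen for 2.57% of all genes in the higher direction and 1.44% in the lower one.

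Vegfa encodes the vascular endothelial growth factor A, a secreted ligand for receptors on endothelial cells. It had 1554, 1433 and 991 CPM in KO R300 1 to 3, against 94.2, 94.0 and 162 CPM in KO blank. In WT it had 1261, 1027 and 1276 CPM with R300, against 83.2, 135 and 182 CPM in blank. Every R300 library stood above every blank library, and the lowest R300 value in each genotype was that of the library without Xist. Over both genotypes Vegfa was 10.1-fold its blank level (95% interval 7.09 to 14.3, log2 3.33, SE 0.23, adjusted p = 3.22e-05, edgeR quasi-likelihood). Within the libraries without Xist, 1 against 1 in each genotype and with no test, the ratio was 6.11 in KO and 5.64 in WT. In the 8 libraries with Xist the log2 difference was 3.77 (edgeR adjusted p = 0.000146). The gene spans chr17:46016993-46032369 of GRCm38 on the minus strand, and none of its exonic bases are shared with another annotated gene. By its mean with R300, Vegfa ranked first among the 34 genes in CPM per kilobase of exon (293 ± 51.5, SD over 6 libraries), while in blank cells it ranked 13 (29.2 ± 9.56). It held rank 1 in each R300 library with Xist, rank 6 in KO R300 3 and rank 5 in WT R300 2, and ranks 12 to 18 in blank libraries. The length used is the union of all annotated exons, which can exceed that of the transcript expressed. Ranks and ratios between genes depend on it. In plain CPM the means with R300 were 1257 for Vegfa and 1232 for Pkm.

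Adm encodes adrenomedullin, a secreted vasodilator peptide and a known HIF target. Its values were 0.586, 0.354 and 0.0318 CPM in KO R300, against 0.269, 0.762 and 0.273 CPM in KO blank. In WT R300 they were 0.536, 0.139 and 0.303 CPM, against 0.476, 0.599 and 0.334 CPM in WT blank. These levels are 1 to 33 counts per library, and at this depth no difference was detectable (log2 -0.48, 95% interval -1.67 to 0.70, edgeR adjusted p = 0.738).

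The 3 transporters among the members, Slc2a1, Slc16a3 and Slc16a1, were all higher with R300. Slc2a1 encodes GLUT1, the basal glucose transporter of many cells. It had 272, 254 and 230.0 CPM in KO R300, against 122, 135 and 137 CPM in KO blank. WT R300 libraries had 264, 236 and 264 CPM, against 134, 137 and 149 CPM in WT blank. The highest blank value was well below the lowest R300 value. The ratio over both genotypes was 1.87 (95% interval 1.69 to 2.08, log2 0.91, SE 0.07, edgeR adjusted p = 4.19e-05). Within the libraries without Xist it was 1.68 in KO and 1.59 in WT. Slc2a1 spans chr4:119108711-119137983 on the plus strand and shares 2.99% of its exonic bases with a gene on the opposite strand, whose reads the library kit does not separate.

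Slc16a3 encodes MCT4, which exports lactate from glycolytic cells. Its values were 345, 318 and 176 CPM in KO R300, against 120, 118 and 87.1 CPM in KO blank. WT R300 had 259, 166 and 260 CPM, against 97.5, 149 and 80.8 CPM in WT blank. The treatments did not overlap, and within each treatment and genotype the library without Xist was lowest. Slc16a3 was 2.32-fold higher over both genotypes (95% interval 1.69 to 3.20, log2 1.22, SE 0.21, edgeR adjusted p = 0.00918). With each near-alike R300 pair summed as 1 library, its adjusted p was 0.0853 and the call ended.

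Slc16a1 encodes MCT1, a carrier that moves lactate and pyruvate in either direction. It had 36.9, 38.0 and 29.3 CPM in KO R300, against 19.6, 20.3 and 21.2 CPM in KO blank. In WT R300 it had 39.1, 29.3 and 37.4 CPM, against 21.7, 19.0 and 20.3 CPM in WT blank. Blank libraries lay close together and R300 libraries were all above them. The ratio was 1.72 (95% interval 1.49 to 1.99, log2 0.78, SE 0.09, edgeR adjusted p = 0.00104). Per kilobase of exon, Slc16a3 was above Slc16a1 in 12 of 12 libraries, with a median ratio of 5.65 in R300 libraries (range 4.71 to 7.78) and 4.30 in blank libraries (range 3.32 to 6.50).

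**Figure D1:**
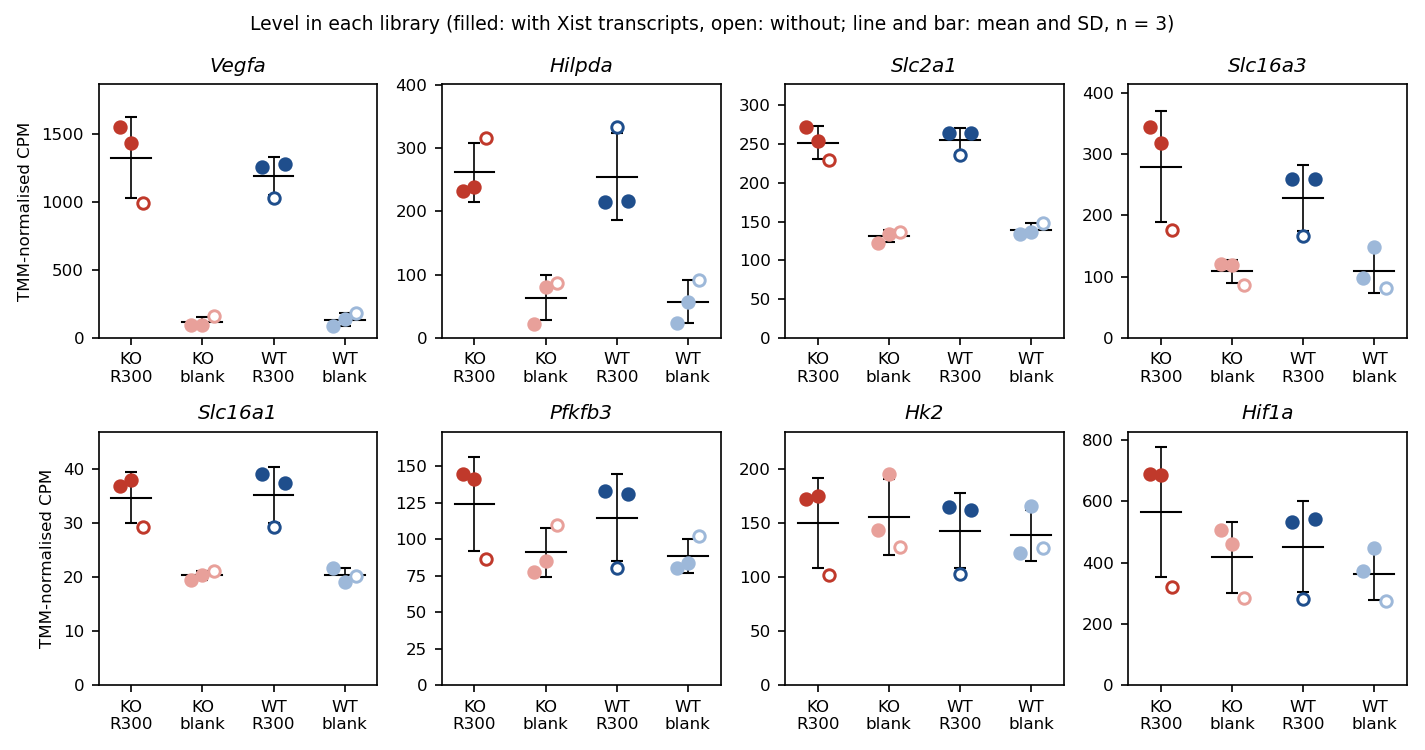
TMM-normalised CPM of 8 members in each of the 12 libraries, with KO R300, KO blank, WT R300 and WT blank from left to right, filled points for libraries with Xist, open points for those without, and lines and bars for the mean and SD of 3 libraries. Vegfa is at 991 to 1554 CPM in R300 libraries and 83.2 to 182 CPM in blank libraries, whereas Hk2 overlaps between the treatments.

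No enzyme of the chain passed the test. The 15 enzymes, from the hexokinases to lactate dehydrogenase, had log2 differences of -0.33 to 0.31 over both genotypes, with a median of 0.08, and 8 of the 15 were positive. The highest upper bound of a 95% interval among them was 0.62. Hk2, the inducible hexokinase that traps glucose in the cell, had 172, 175 and 102 CPM in KO R300, against 143, 195 and 128 CPM in KO blank. In WT R300 it had 165, 103 and 162 CPM, against 123, 166 and 127 CPM in WT blank. The treatments overlapped throughout (log2 -0.004, 95% interval -0.40 to 0.39, edgeR adjusted p = 0.996).

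Further down the chain, Pkm, which encodes pyruvate kinase, was at 1177 to 1297 CPM with R300 and 892 to 1116 CPM in blank libraries. Its libraries did not overlap and its ratio was 1.21 (95% interval 1.08 to 1.35), yet it did not pass (log2 0.27, SE 0.07, edgeR adjusted p = 0.0709). It passed with DESeq2 (adjusted p = 0.00166) and with a term for the libraries without Xist (edgeR adjusted p = 0.0241). Pkm shares 15.3% of its exonic bases with a predicted gene on the same strand. Ldha encodes the lactate dehydrogenase subunit that favours lactate. Ldha had 750.0, 749 and 890 CPM in KO R300, against 558, 853 and 775 CPM in KO blank. WT R300 libraries had 871, 857 and 837 CPM, against 678, 652 and 759 CPM in WT blank. Its WT treatments were apart and its KO treatments overlapped, and over both genotypes it did not pass (log2 0.21, SE 0.11, edgeR adjusted p = 0.374).

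None of the other enzymes passed either. Aldoa (aldolase A) was at 716 to 832 CPM with R300 and 581 to 718 CPM in blank libraries. Pgam1 (phosphoglycerate mutase) was at 495 to 627 and 323 to 569 CPM, Eno1 (enolase 1) at 679 to 1199 and 605 to 949 CPM, and Pgk1 (phosphoglycerate kinase) at 223 to 318 and 206 to 276 CPM, with R300 first. These 4 genes had log2 differences of 0.19 to 0.31 and edgeR adjusted p of 0.237 to 0.376. With a term for the libraries without Xist, Pgam1, Eno1 and Pgk1 passed (edgeR adjusted p = 0.0437, 0.00847 and 0.025). Tpi1 (triosephosphate isomerase), Gpi1 (glucose-6-phosphate isomerase) and Hk1 were at 182 to 223, 316 to 364 and 73.9 to 83.4 CPM in R300 libraries, against 159 to 210, 322 to 377 and 66.1 to 80.6 CPM in blank ones. The isozymes of phosphofructokinase overlapped between the treatments, with Pfkp at 241.5 to 308 CPM in R300 libraries and 221.5 to 385 CPM in blank ones, Pfkl at 41.9 to 63.4 and 40.6 to 86.4 CPM, and Pfkm at 2.67 to 3.97 and 3.37 to 5.32 CPM. Aldoc (aldolase C) was at 1.95 to 3.50 and 2.21 to 3.56 CPM, with R300 first. Their log2 differences were -0.07 (Pfkp), -0.14 (Pfkl), -0.33 (Pfkm) and -0.16 (Aldoc). Gpi1, Pfkm and Pfkp share 11.5%, 10.7% and 5.58% of their exonic bases with other annotated genes. Gapdh was at 86.9 to 109 CPM with R300 and 72.6 to 194 CPM in blank libraries. Its counts are uncertain, since Gapdh-ps15 and Gapdh-ps16, near-identical pseudogenes, held 2699 to 6124 and 2082 to 4535 counts of their own, and the same holds for Eno1 beside Eno1b at 1449 to 3923 counts.

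Per kilobase of exon, the highest members with R300 were Vegfa (293 ± 51.5 CPM per kilobase, SD over 6 libraries), Pgam1 (281 ± 26.7), Aldoa (260 ± 16.7), Ldha (249 ± 18.6), Pkm (246 ± 8.21) and Hilpda (234 ± 47.6), and the ranges of neighbours in this order overlapped. In blank cells they were Aldoa (228 ± 16.6), Pgam1 (227 ± 49.8), Ldha (215 ± 31.6) and Pkm (204 ± 15.7), which do not differ beyond their spread, followed by Eno1 at 146 ± 25.7 and Pgk1 at 104 ± 10.3. The lowest members in both states were Adm, Ankrd37, Aldoc and Pfkm, all under 1.6 CPM per kilobase in every library. Among isozymes, Hk2 was above Hk1 per kilobase in 12 of 12 libraries, with a median ratio of 2.87 in R300 libraries and 2.53 in blank ones. Pfkp was above Pfkl by a median of 2.49 and 3.03 and above Pfkm by 18.7 and 19.1, and Aldoa was above Aldoc by 326 and 270.1, with R300 first. Their ranges overlapped between the treatments. These orders and ratios depend on the exon lengths used.

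**Figure D2:**
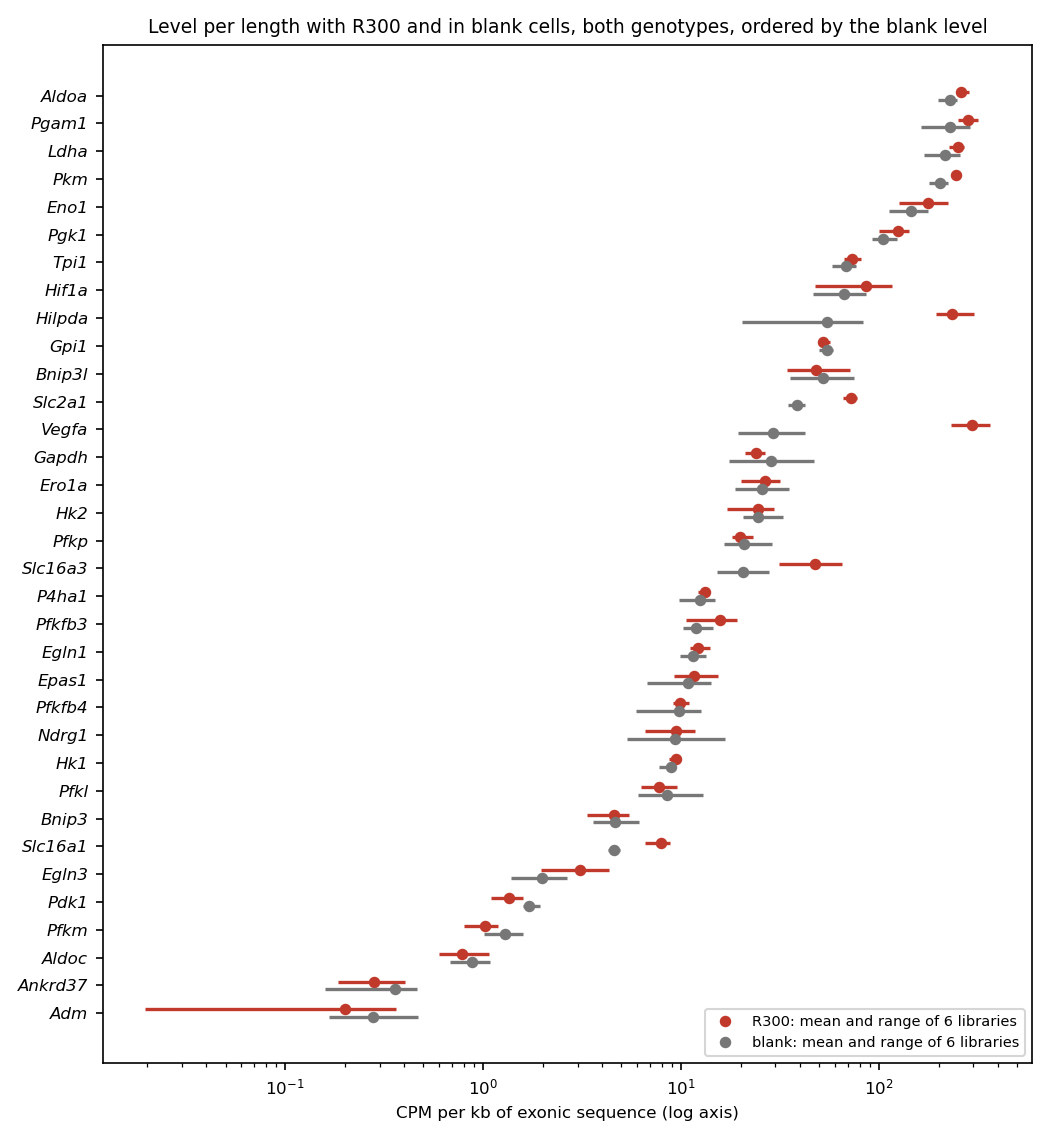
CPM per kilobase of exon of each of the 34 genes on a log axis, with points for the mean and bars for the range of 6 R300 and 6 blank libraries, ordered by the blank level. By the mean, Vegfa has rank 1 with R300, against rank 13 in blank libraries, and Hilpda has rank 6 with R300, against rank 9 in blank libraries.

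Pfkfb3 makes fructose 2,6-bisphosphate, the strongest activator of phosphofructokinase. Its values were 145, 141 and 86.6 CPM in KO R300, against 77.6, 85.1 and 110 CPM in KO blank. In WT they were 133, 80.1 and 131 CPM with R300, against 79.9, 83.5 and 102 CPM in blank. KO R300 3 and WT R300 2 stood below the blank library of their genotype that also lacked Xist, and the other R300 libraries stood above every blank one. Over all 12 libraries Pfkfb3 did not pass (log2 0.41, SE 0.17, edgeR adjusted p = 0.261). In the 8 libraries with Xist the log2 difference was 0.75 (edgeR adjusted p = 0.00133), and in those without it the ratio was 0.788 in KO and 0.787 in WT, 1 library against 1. A test of this difference in response, added after the values were seen, gave -1.10 for the libraries without Xist minus those with it (SE 0.10, edgeR adjusted p = 0.0120). Among all genes 0.0181% had a lower and 0.0121% a higher response by that test, and no other member passed it. For Vegfa the difference was -1.21 (SE 0.23, adjusted p = 0.193). Libraries that share Xist status may come from 1 pool of animals, so this p may be too small. Pfkfb4, another isozyme of the same enzyme, was at 44.3 to 53.3 CPM in R300 libraries and 28.7 to 61.2 CPM in blank ones (log2 0.02, edgeR adjusted p = 0.976).

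**Figure D3:**
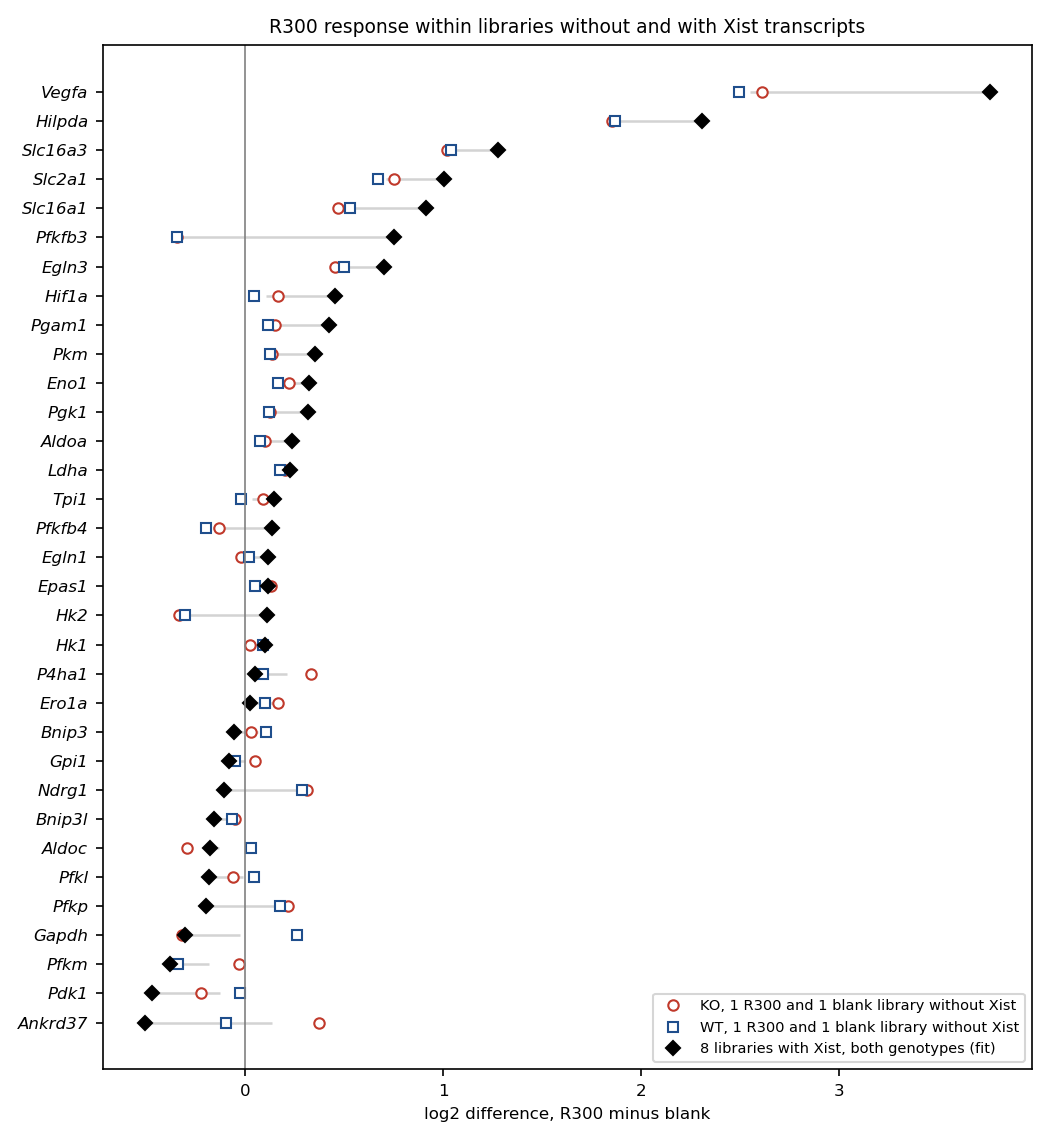
Log2 difference of R300 from blank for each member except Adm, with open symbols for the libraries without Xist (1 against 1 in each genotype), diamonds for the fit of the 8 libraries with Xist, and a grey line from the diamond to the mean of the open symbols. Pfkfb3 lies below 0 without Xist, at ratios of 0.788 in KO and 0.787 in WT, and at 0.75 with Xist, whereas Vegfa, Hilpda and the transporters lie above 0 in both.

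Pdk1, a kinase that shuts pyruvate dehydrogenase and so keeps pyruvate out of the mitochondria, had 10.9, 10.8 and 11.5 CPM in KO R300, against 15.2, 13.5 and 13.4 CPM in KO blank. In WT R300 it had 8.58, 12.4 and 8.51 CPM, against 12.4, 12.6 and 12.7 CPM in WT blank. The KO treatments did not overlap, and in WT the library without Xist kept its R300 value close to blank. Pdk1 did not pass (log2 -0.35, SE 0.11, edgeR adjusted p = 0.115). It passed as lower without WT R300 2 (edgeR adjusted p = 0.0128), with DESeq2 (0.0277), with a term for the libraries without Xist (edgeR, 0.0460) and in the 8 libraries with Xist (edgeR, 0.0419).

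Hif1a encodes HIF-1α, the oxygen-labile subunit. Its transcript had 689, 686 and 320 CPM in KO R300, against 507, 459 and 286 CPM in KO blank. WT R300 libraries had 533, 282 and 541 CPM, against 371, 448 and 273 CPM in WT blank. In each group the library without Xist was lowest, and the treatments overlapped. Over 12 libraries Hif1a did not pass (log2 0.38, 95% interval -0.17 to 0.92, edgeR adjusted p = 0.521). It passed with a term for the libraries without Xist (log2 0.34, edgeR adjusted p = 0.0286) and in the 8 libraries with Xist (log2 0.45, edgeR adjusted p = 0.0306). The R300 libraries with Xist are the near-alike pairs, so these p may be too small. Hif1a shares 8.11% of its exonic bases with predicted genes. Epas1, which encodes HIF-2α, was at 51.4 to 86.1 CPM in R300 libraries and 37.6 to 79.5 CPM in blank ones (log2 0.10, edgeR adjusted p = 0.876). Per kilobase Hif1a was above Epas1 in 12 of 12 libraries.

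The prolyl hydroxylases mark HIF-α for destruction, and Egln3 is itself a HIF target. Egln3 had 6.90, 9.28 and 7.03 CPM in KO R300, against 5.86, 5.48 and 5.13 CPM in KO blank. In WT R300 it had 9.59, 5.19 and 11.5 CPM, against 7.05, 4.43 and 3.67 CPM in WT blank. KO libraries did not overlap and WT libraries did, through WT R300 2. Its ratio of 1.57 did not pass (log2 0.65, SE 0.21, edgeR adjusted p = 0.149), and it passed without WT R300 2 (edgeR adjusted p = 0.0343) and with a term for the libraries without Xist (edgeR, 0.0411). Egln1, the main oxygen sensor, was at 39.8 to 50.4 CPM in R300 libraries and 35.5 to 48.0 CPM in blank ones (log2 0.07, edgeR adjusted p = 0.751).

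Among the other HIF targets, Hilpda stood apart. It encodes a protein of lipid droplets that inhibits the lipase ATGL. Hilpda had 232, 238 and 316 CPM in KO R300, against 22.5, 80.2 and 87.4 CPM in KO blank. WT R300 libraries had 215, 334 and 216 CPM, against 24.0, 56.0 and 91.3 CPM in WT blank. The R300 libraries all exceeded the blank ones, and in both states the library without Xist was highest in each genotype. Its ratio over both genotypes was 4.29 (95% interval 2.44 to 7.56, log2 2.10, SE 0.37, edgeR adjusted p = 0.0102), and the call ended without a filter on low counts (adjusted p = 0.0562) and with each near-alike R300 pair summed as 1 library (0.0612). Within the libraries without Xist the ratio was 3.61 in KO and 3.66 in WT.

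Bnip3, a mitophagy receptor and a HIF target of textbooks, had 7.62, 12.4 and 10.7 CPM in KO R300, against 11.2, 9.03 and 10.5 CPM in KO blank. In WT R300 it had 10.8, 10.9 and 9.48 CPM, against 13.9, 8.18 and 10.2 CPM in WT blank. Its treatments overlapped (log2 -0.02, 95% interval -0.36 to 0.32, edgeR adjusted p = 0.975). Ero1a, an oxidase that forms disulfide bonds in the endoplasmic reticulum, had 164, 167 and 112 CPM in KO R300, against 142, 185 and 99.9 CPM in KO blank. WT R300 libraries had 147, 107 and 144 CPM, against 125, 161 and 99.5 CPM in WT blank. It overlapped as well (log2 0.05, 95% interval -0.34 to 0.44, edgeR adjusted p = 0.934). The remaining targets overlapped too. Bnip3l, a mitophagy receptor, was at 132 to 276 CPM in R300 libraries and 137 to 289 CPM in blank ones, and Ndrg1 at 43.6 to 77.6 and 35.1 to 110.4 CPM. P4ha1, a subunit of the prolyl hydroxylase of collagen, was at 50.3 to 57.6 and 40.0 to 61.0 CPM, and Ankrd37 at 0.283 to 0.621 and 0.246 to 0.718 CPM, with R300 first. These 4 had log2 differences of -0.11, 0.02, 0.09 and -0.36, with edgeR adjusted p of 0.648 to 0.984. Bnip3, Ankrd37 and Ndrg1 share 22.3%, 26.4% and 8.43% of their exonic bases with genes on the opposite strand, whose reads the kit does not separate.

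The genotypes were also fitted each on its own contrast. In KO, 3 of the 34 genes were higher with R300 and 0 were lower, against 0.695% and 0.139% of all genes (0.834% in either direction). They were Vegfa (11.4-fold, 95% interval 6.89 to 18.7, edgeR adjusted p = 0.000719), Slc2a1 (1.92-fold, 95% interval 1.66 to 2.23, edgeR adjusted p = 0.000999) and Slc16a1 (1.71-fold, 95% interval 1.39 to 2.09, edgeR adjusted p = 0.0243). In WT, 3 were higher and 0 were lower, against 0.55% and 0.0725% of all genes (0.623% in either direction), and they were Vegfa (8.91-fold, 95% interval 5.45 to 14.6), Slc2a1 and Slc16a1 (1.74-fold), with edgeR adjusted p of 0.00141, 0.00177 and 0.0253. Slc16a3 was at 2.58-fold in KO (edgeR adjusted p = 0.0721) and 2.09-fold in WT (0.213), and Hilpda at 4.13-fold in KO (0.136) and 4.46-fold in WT (0.137). Slc16a3 passed in both genotypes with DESeq2 (adjusted p = 0.00120 in KO and 0.0357 in WT), with a term for the libraries without Xist (edgeR, 0.000875 and 0.00353) and in the 8 libraries with Xist (edgeR, 0.0151 and 0.0487). Hilpda passed in both with DESeq2 (adjusted p = 0.00358 in KO and 0.00214 in WT), with a replicate block (edgeR, 0.0439 and 0.0426) and with the term (edgeR, 0.0283 and 0.0265). Libraries did not overlap for 7 members that were higher and 1 that was lower in KO, against 6.64% and 5.68% of all genes. In WT that held for 8 higher and 0 lower members, against 6.74% and 6.09%.

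**Figure D4:**
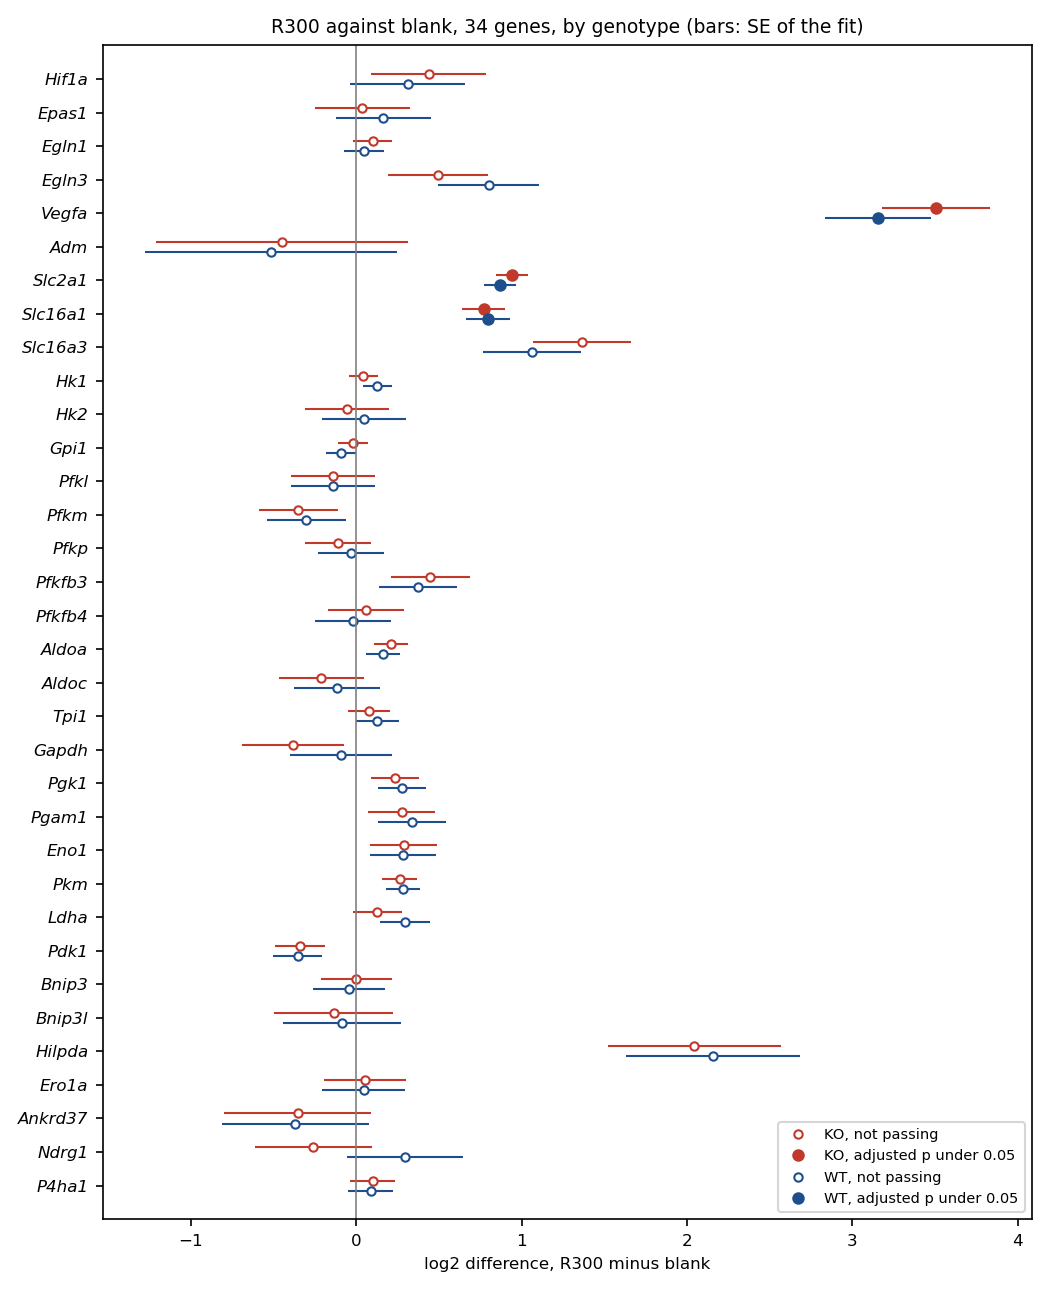
Log2 difference of R300 from blank for each of the 34 genes in KO and in WT, with bars for the SE of the edgeR fit and filled points for adjusted p under 0.05. Vegfa, Slc2a1 and Slc16a1 are filled in both genotypes, and the 15 enzymes lie between -0.38 and 0.29 in KO and between -0.30 and 0.34 in WT.

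Calls for Vegfa and Slc2a1 within a genotype held without any 1 of the 12 libraries. The Slc16a1 call ended in KO without KO R300 1, KO R300 2 or any KO blank library (edgeR adjusted p 0.0755 to 0.154). In WT it ended without WT R300 1, WT R300 3, any WT blank library, KO R300 1 or KO R300 2 (0.0502 to 0.147). Slc16a3 passed in KO without KO R300 3 (edgeR adjusted p = 0.0262).

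No member passed a test of one genotype against the other. Among libraries with Xist, its level was higher in KO than in WT, and the part of this in the genotype comparisons was not tested. Over both treatments, 6 KO libraries against 6 WT ones, 0 of the 34 genes were called higher or lower (edgeR quasi-likelihood, and 0 with DESeq2), against 0% and 0.00604% of all genes. None had an unadjusted p under 0.05, as against 2.80% of all genes. The log2 differences of KO from WT ran from -0.16 to 0.28, and the 95% intervals of 33 of the 34 lay within 1 log2 unit of 0. The member furthest from 0 was Eno1, at 0.28 (95% interval -0.04 to 0.59). For Vegfa the difference was -0.02 (95% interval -0.48 to 0.44) and for Slc2a1 -0.05 (95% interval -0.20 to 0.10). Hif1a was at 0.26 with an interval of -0.28 to 0.80. No member's KO libraries all lay above or all below its WT libraries, as 0.0907% and 0.151% of all genes did. The 1 gene called was the macrophage marker Lyz2, which encodes lysozyme, at 0.541 of its WT level (log2 -0.89, SE 0.08, edgeR adjusted p = 0.00508). The 12 macrophage markers summed to 12860 to 15120 CPM in KO R300 and 11530 to 12610 CPM in KO blank, against 18970 to 19730 CPM in WT R300 and 17820 to 19670 CPM in WT blank. Lyz2 was part of this sum, at 6058 to 7317 CPM in KO libraries and 12180 to 13520 CPM in WT libraries. The sum therefore does not tell whether the other markers differed. Tested gene by gene over both treatments, 0 of the 12 were higher in KO and 1 was lower, which was Lyz2. Their median log2 difference was -0.07.

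Within R300 cells the differences of KO from WT ran from -0.36 (Ndrg1) to 0.32 (Hif1a), and within blank cells from -0.19 (Vegfa) to 0.30 (Gapdh). In each, 0 members were called with edgeR or DESeq2 and 0 had an unadjusted p under 0.05, against 0% of all genes called with edgeR and 1.96% (R300) and 1.09% (blank) at the unadjusted p. Blank libraries did not overlap for 1 member, Pdk1, which had 13.4 to 15.2 CPM in KO blank, against 12.4 to 12.7 CPM in WT blank. That separation was seen for 1.74% of all genes, and the reverse, seen for 1.96%, held for 0 members. In R300 cells 0 members were apart in either direction, against 4.03% of all genes higher and 3.87% lower. In blank cells 15 of the 15 enzymes had a positive difference of KO from WT, as did 50.7% of all genes, against 10 of 15 in R300 cells, where 48.6% of all genes did. These signs were not stable, since 28 of the 34 members changed sign in blank cells under some alternative fit. Blank libraries of the same number deviated together, and a fit of the 6 blank libraries with the number as a block called 0 genes. At an unadjusted p under 0.05 that fit held 3 members (8.82%), Eno1 and Pfkl as higher in KO and Pfkfb4 as lower, against 4.28% of 15809 genes, and the lowest edgeR adjusted p of a member was 0.989. In all 3 pairs 7 members were higher in KO blank (Hif1a, Hk2, Pfkl, Pgk1, Eno1, Pdk1 and Ero1a) and 3 were lower (Slc2a1, Pfkfb4 and Bnip3l), beside 12.1% and 12.7% of all genes. Of the 15 enzymes, only Hk2, Pfkl, Pgk1 and Eno1 were higher in all 3 pairs. The R300 response in KO minus that in WT ran from -0.55 (Ndrg1, 95% interval -1.65 to 0.54) to 0.35 (Vegfa, 95% interval -0.57 to 1.27), and 0 members and 0% of all genes were called. The intervals of 23 of the 34 lay within 1 log2 unit of 0, so a difference of that size is not excluded for the others, Vegfa among them.

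**Figure D5:**
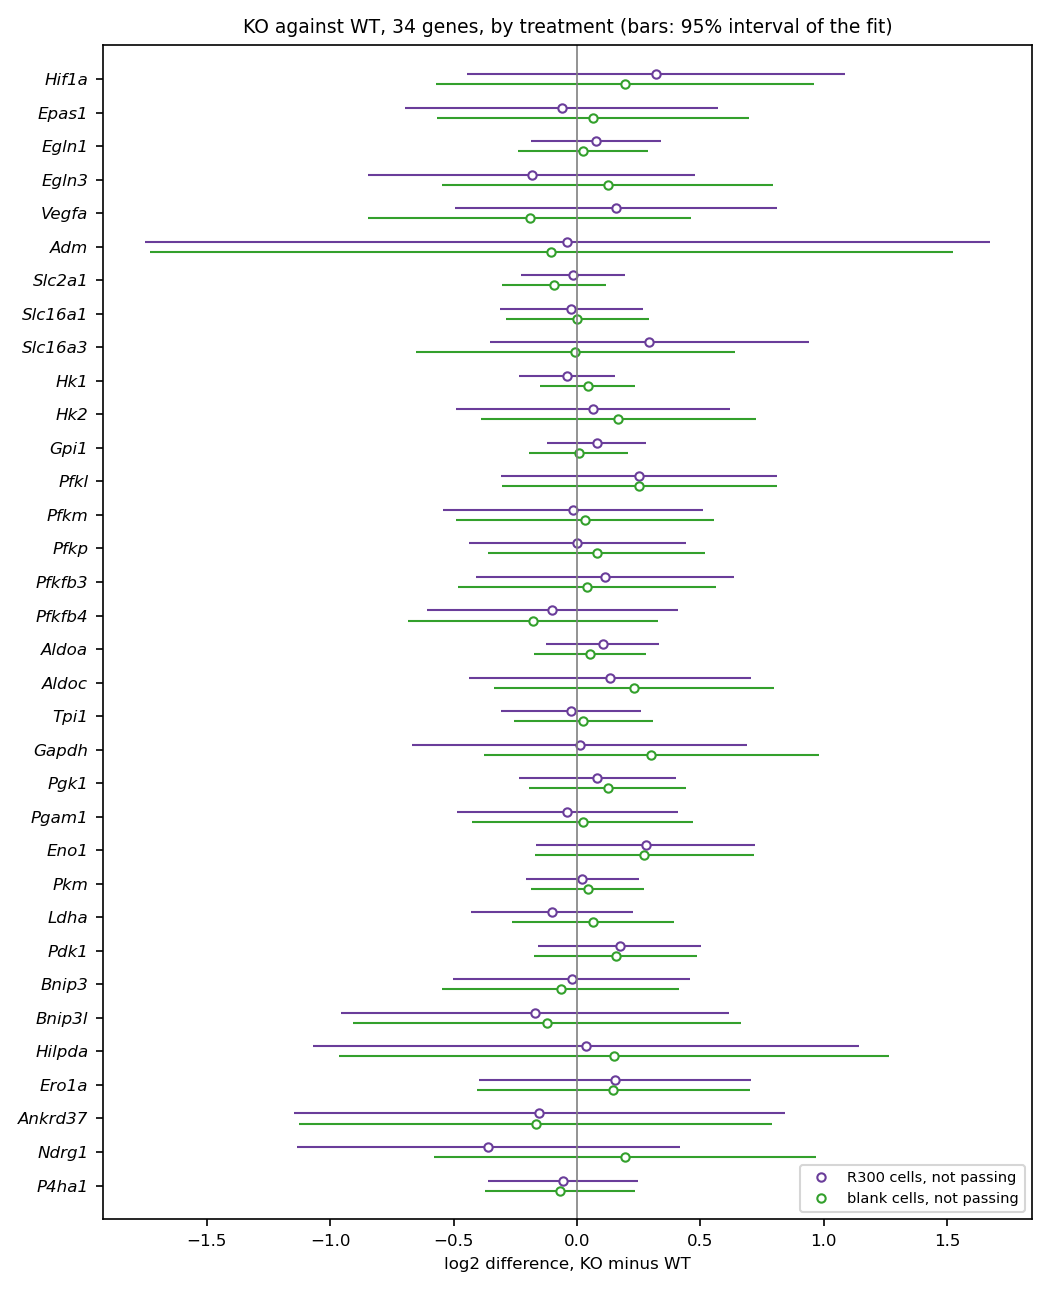
Log2 difference of KO from WT for each of the 34 genes in R300 cells and in blank cells, with 95% intervals of the edgeR fit (3 libraries against 3). The values run from -0.36 to 0.32 in R300 cells and from -0.19 to 0.30 in blank cells, and none passed the test.

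Other genes of the same pathways were counted from lists chosen by function, with earlier results of these data known. With R300 over both genotypes, 0 of 6 tested other glucose transporters, 0 of 16 other glycolysis genes, 0 of 15 genes of pyruvate entry into mitochondria and 0 of 11 genes of the pentose phosphate pathway passed, with median log2 differences of -0.08, -0.01, 0.01 and 0.004. Among all genes 2.43% were higher and 1.21% lower, and the counts below stand beside the same shares. Of 14 glycogen genes 1 was higher, Ppp1r3b, which targets a phosphatase to glycogen (2.70-fold, log2 1.43, SE 0.29, edgeR adjusted p = 0.0191). In the HIF machinery 2 of 15 were higher, Cul2, a scaffold of the ligase that destroys HIF-α (1.29-fold, log2 0.37, SE 0.06, edgeR adjusted p = 0.00955), and Arnt, the partner of HIF-α (1.22-fold, edgeR adjusted p = 0.0337).

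Of 52 other HIF targets 3 were higher and 1 was lower, with a median log2 difference of 0.08. The most changed was Mxi1, a repressor that opposes MYC, at 243 to 293 CPM in R300 libraries and 37.9 to 61.0 CPM in blank ones (5.52-fold, log2 2.46, SE 0.11, edgeR adjusted p = 1.68e-06). Ddit4, an inhibitor of mTORC1, was 4.25-fold higher (edgeR adjusted p = 0.00339), at 13.95 to 40.5 CPM with R300 and 5.62 to 9.52 CPM in blank libraries. Mt1, a metallothionein, was 2.42-fold higher (edgeR adjusted p = 0.0437), and Ccng2, an atypical cyclin, was at 0.660 of its blank level (edgeR adjusted p = 0.0376). Mxi1 passed in each genotype and Ddit4 in KO. Of 14 other VEGF ligands, receptors and co-receptors 0 passed, with a median of 0.17. No gene of these lists passed in a comparison of the genotypes.

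Markers of other cells moved with the treatment, and their part in the results was not tested. In bulk RNA, fewer cells of a type and less RNA per cell cannot be told apart. Platelet markers, 14 of 16 in the table, summed to 62.7 to 156 CPM in R300 libraries and 58.4 to 123 CPM in blank ones. Of the 10 tested, 0 were called and 7 were positive, with a median log2 difference of 0.27. Most of the sum was Pf4 (40.2 to 114 CPM, against 41.0 to 94.9). Ppbp was at 0.7962 to 4.497 CPM with R300 and 0.8463 to 2.063 CPM in blank libraries. Clec1b was at 0.6577 to 2.125 and 0.2079 to 0.9569 CPM, with R300 first. Tubb1 went the other way, at 0.05642 to 0.3179 CPM with R300 and 0.2163 to 0.5191 CPM in blank libraries. The ranges of Ppbp, Clec1b and Tubb1 overlapped between the treatments. Gp5, Gp6 and Gp9, which define platelets, were at 0 to 0.485 CPM, whereas Selp was at 1.80 to 22.9 CPM with R300 and 1.04 to 13.5 CPM in blank libraries, Itgb3 at 5.41 to 8.07 and 3.50 to 8.94 CPM, Treml1 at 1.49 to 4.53 and 1.02 to 5.12 CPM, Itga2b at 1.89 to 3.08 and 1.73 to 2.60 CPM, and Gp1ba at 0.969 to 2.53 and 1.04 to 2.51 CPM.

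Eosinophil and mast cell markers summed to 51.4 to 114 CPM with R300 and 19.3 to 75.9 CPM in blank libraries. All 9 tested were positive, with a median log2 difference of 0.93, and 3 were called higher. These were Gata2 at 4.17-fold, a transcription factor, and the mast cell proteases Mcpt4 at 2.20-fold (edgeR adjusted p = 0.0428) and Tpsb2 at 1.85-fold (0.0231). The mast cell proteases Tpsab1 and Cma1 were at 4.40 to 20.8 and 3.05 to 9.48 CPM with R300, against 1.38 to 9.87 and 1.38 to 6.05 CPM in blank libraries, while Ms4a2, Epx and Prg2 were at 0 to 0.276 CPM. Mesothelial and fibroblast markers summed to 211 to 1488 CPM and 162 to 708 CPM, and B cell markers to 92.1 to 145 CPM and 94.5 to 334 CPM, with R300 first and 0 of 13 tested called in each. The former were positive in 13 of 13 (median log2 difference 0.77) and the latter in 0 of 13 (-0.97). Neutrophil markers were positive in 2 of 8 (median -0.33) and erythroid markers in 0 of 6 (-0.68). T and NK cell markers were positive in 5 of 12 (median -0.17), and 0 were called in these 3 lists. Of the 12 macrophage markers 1 was higher with R300, Cd14, a co-receptor for bacterial lipopolysaccharide, at 1477 to 3465 CPM against 524 to 1448 CPM in blank libraries (2.82-fold, SE 0.32 in log2, edgeR adjusted p = 0.0261). Heat shock genes summed to 2929 to 3365 CPM with R300 and 2572 to 3027 CPM in blank libraries. Of the 13, 2 were higher, Hsph1 (1.63-fold, edgeR adjusted p = 0.000870) and Hspa8 (1.39-fold, 0.0161). The cause of these differences was not tested.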

How the data were processed

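Poly(A) RNA, captured with oligo(dT), was sequenced in 12 libraries. The NEBNext Ultra kit named in the labels' protocols leaves the strand of a read unknown. The submitters' processing notes name mm10 and the tools HISAT2 (given as version 2), featureCounts 2.0.3, FastQC 0.12.1, DESeq2 1.42.0 and fastp 0.23.4. The authors deposited raw counts by gene symbol in 35050 rows, identical in the 12 sample files. The 102 rows without a symbol (0.0232% to 0.0328% of a library's counts) were left out, and a second row named Aldoa (5 to 22 counts) was kept apart.

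The counts were tested with edgeR 4.0.16 in R 4.3.3 (TMM, filterByExpr by group, and a robust quasi-likelihood fit of all 12 libraries with a mean for each of the 4 groups). Of the genes, 16546 were tested, Benjamini-Hochberg adjusted over all of them, and called under 0.05; the common biological coefficient of variation was 0.267. The steps were tested on simulated independent libraries with a smaller spread than these data have. That test does not measure power or false calls here. CPM are TMM-normalised, intervals are 95% intervals of the fit, and lengths are the union of exons in GENCODE vM21. Alternatives were DESeq2 1.42.0, other scaling, no filter, a minimum fold of 2, fits of the compared groups alone, a replicate block, a term for the libraries without Xist, only the 8 libraries with it, near-alike pairs summed, and each library left out.

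Same-numbered libraries of KO blank and WT blank deviated together (correlations 0.51 to 0.56). Those of the other pairs of groups did so only in part (-0.60 to 0.61). KO R300 3, which lacks Xist, was at 0.61 with KO blank 3 and 0.56 with WT blank 3, which lack it too. Only between the blank groups did the numbers pair all 3 libraries. With the block, the 6 blank libraries gave 0 calls.

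Members and lists were chosen with earlier results of these data known. Values of every library are given for each member called in any comparison and for members picked by role, and the other members are given by range. Of each other list, up to 4 called genes with the largest difference are named. Adgre1, Csf1r, Pf4, Gp5, Gp6, Gp9, Selp, Itgb3, Treml1, Itga2b, Gp1ba, Ppbp, Clec1b, Tubb1, Ms4a2, Epx, Prg2, Tpsab1 and Cma1 fall outside this rule. The counting precision is set by the totals, and the spread between libraries is wider.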

Additional observations from a re-analysis of the deposited data

Results flagged for a closer look

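The response of Pfkfb3 to R300-coated platelets differed between libraries by their Xist status, in a test added after the values were seen. The log2 difference of R300 from blank was 1.10 units lower in the libraries without Xist than in those with it (-1.10, SE 0.10, edgeR quasi-likelihood adjusted p = 0.0120, 4 libraries against 8). Without Xist, the level with R300 was below blank in both genotypes, at 86.6 CPM in KO R300 3 against 110 CPM in KO blank 3, and at 80.1 CPM in WT R300 2 against 102 CPM in WT blank 3. With Xist, it was above blank in both, at 141 to 145 CPM against 77.6 to 85.1 CPM in KO and 131 to 133 CPM against 79.9 to 83.5 CPM in WT. No group held a library without Xist other than those named here, so their spread within a group was not measured. The only R300 libraries with Xist are the near-alike pairs, and the p rests in part on the spread within them. Libraries were grouped by a transcript measured in them, so the p is given as a description.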

How the results depend on the processing

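Of R300 against blank within a genotype, 3 members were called in KO and 3 in WT. These counts became 1 and 1 with a minimum fold of 2 and 5 and 5 with each of DESeq2, a term for the libraries without Xist and the 8 libraries with Xist. Over both genotypes the 5 calls became 3 with the minimum fold, 12 with the term (11 higher, 1 lower), 9 in the 8 libraries with Xist (8 higher, 1 lower) and 3 with near-alike R300 pairs summed, where Slc16a3 (adjusted p = 0.0853) and Hilpda (0.0612) were lost. Leaving out each library gave 2 to 4 calls in KO, 2 to 3 in WT, 5 to 7 over both, and 0 to 0 in every comparison of genotypes. With the replicate block the counts were 4 in KO, 4 in WT and 5 over both, the added call in each genotype being Hilpda (edgeR adjusted p 0.0439 in KO and 0.0426 in WT), and 0 between genotypes; it changed no other call. The calls of Slc16a1 within genotypes also ended with library totals only, with only the groups compared and with near-alike pairs summed (0.0636 to 0.246). Vegfa was called under each of these alternatives, with adjusted p of at most 0.0116 in KO, 0.0183 in WT and 0.000808 over both. No member changed sign in a value that passed. Calls among all genes, 138 in KO, 103 in WT and 603 over both, were 442, 363 and 1222 with DESeq2, 450, 347 and 1492 with the term, 290, 242 and 1004 with Xist, 35, 27 and 158 with pairs summed, 85, 70 and 244 with the minimum fold, and 43 (KO) and 41 (WT) with only the groups compared. Leaving out 1 library gave 45 to 171, 32 to 135 and 308 to 852, lowest in KO without KO R300 1 or 2, in WT without WT R300 1 or 3, and over both without WT R300 1. Between genotypes, edgeR called 0 genes in R300 cells, 0 in blank cells and 1 over both, and DESeq2 14, 4 and 50. Over both, 402 genes were higher and 201 lower, and with library totals only 339 and 345. The causes were not tested. Depth limits Adm and Ankrd37, at 1 to 33 and 8 to 26 counts per library.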

Other observations

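Some members separated the 4 libraries without Xist from the 8 with it, whatever the treatment or genotype. Epas1 was at 78.7 to 86.1 CPM without Xist and 37.6 to 61.5 CPM with it, Pgam1 at 565 to 627 and 323 to 552 CPM, and Bnip3l, a mitophagy receptor, at 258 to 289 and 132 to 176 CPM. Hif1a was at 273 to 320 CPM without Xist and 371 to 689 CPM with it, Pfkl at 40.6 to 44.4 and 46.9 to 86.4 CPM, and Ero1a at 99.5 to 112 and 125 to 185 CPM. These are 3 higher and 3 lower members, beside 7.55% and 5.44% of all genes that separate these libraries in the same way. The libraries were grouped by a transcript measured in them, so the values are a description. Marker sums differed between the same libraries, with platelet markers at 58.4 to 79.1 CPM without Xist and 96.6 to 156 CPM with it, and erythroid markers at no more than 14.7 and at 66.3 to 325.5 CPM. Their part in these values was not tested.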
